A study of Mus musculus with 4 samples.

Results

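The genes *Rag1*, *Rag2*, *Dntt* and *Ptcra* were examined for binding of DNA topoisomerase IIβ (TOP2B) in mouse thymocytes. A called ChIPseq peak was counted if its centre lay inside the gene or within 100 kb of it, with genes placed on mm9 by GENCODE M1. *Rag1* and *Rag2* are neighbours and were treated as a single locus, so that the 4 genes made up 3 loci. Of 21318 peaks in both lists, 23 were at these loci, 20 of the 17754 Santa Cruz peaks and 3 of the 3564 Novus peaks. The thymocytes came from C57BL/6 mice of 4 to 6 weeks of age, without any treatment in the labels. The paper gives the mice used for TOP2B ChIPseq as wild-type. Of the 4 libraries, 1 was made with a TOP2B antibody from Santa Cruz, 1 with a TOP2B antibody from Novus Biologicals, 1 with IgG and 1 with a TOP2A antibody. The 2 TOP2B lists were used, and the IgG and TOP2A libraries were not analysed here beyond the use of IgG as the authors' control in peak calling. There was no replicate library of either antibody, and the lists give positions without heights or read numbers, so the depth behind a peak is unknown and no replicate error can be given. Thymocytes were not sorted by stage, so a peak cannot be assigned to a stage of development.

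The 4 genes act at successive steps of antigen receptor assembly. RAG1 and RAG2 form the recombinase that cuts DNA beside V, D and J segments at recombination signal sequences, DNTT (terminal transferase) adds nucleotides without a template at the cut ends before they are joined, and PTCRA, the pre-TCR α chain, pairs with a newly made TCR β chain on the surface of immature thymocytes. TOP2B passes DNA strands through a transient double-strand break, and is known to bind at promoters and at sites of cohesin and the insulator protein CTCF. In double-positive thymocytes, *Rag1* and *Rag2* are known to depend on a distal anti-silencer element on the 5′ side of *Rag2*. Its coordinates were not among the files used, and no peak was assigned to it.

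The DNA of selected peaks of the loci is given below as plus-strand mm9 sequence in 5′ to 3′ direction. The first set holds the peak in the *Rag2* intron and the peak closest to the *Rag1* start, neither of which held a searched motif. Capitals in the later sets mark a match to one of the searched motifs.
Rag2 intron, Santa Cruz, chr2:101465692-101465878: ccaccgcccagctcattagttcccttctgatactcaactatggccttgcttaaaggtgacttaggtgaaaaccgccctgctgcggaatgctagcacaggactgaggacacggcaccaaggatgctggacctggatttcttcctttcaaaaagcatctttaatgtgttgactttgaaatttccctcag
Rag1 upstream near, Santa Cruz, chr2:101492294-101492480: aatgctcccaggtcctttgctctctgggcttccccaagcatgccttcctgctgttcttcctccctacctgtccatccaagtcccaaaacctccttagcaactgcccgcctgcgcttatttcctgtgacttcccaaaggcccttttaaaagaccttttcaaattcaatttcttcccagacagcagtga

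The second set holds the outermost Santa Cruz peaks of the *Rag1*-*Rag2* locus, since these matched the CTCF core. In the left peak the match is on the minus strand. In the right peak the first capitals are a RUNX match (TGTGGT) on the minus strand, and the second a CTCF core match on the plus strand.
Rag locus leftmost, Santa Cruz, chr2:101384002-101384188: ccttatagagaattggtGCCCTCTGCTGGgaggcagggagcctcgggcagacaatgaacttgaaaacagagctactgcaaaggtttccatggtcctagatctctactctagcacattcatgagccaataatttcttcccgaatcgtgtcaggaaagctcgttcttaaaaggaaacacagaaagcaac
Rag locus rightmost, Santa Cruz, chr2:101534052-101534238: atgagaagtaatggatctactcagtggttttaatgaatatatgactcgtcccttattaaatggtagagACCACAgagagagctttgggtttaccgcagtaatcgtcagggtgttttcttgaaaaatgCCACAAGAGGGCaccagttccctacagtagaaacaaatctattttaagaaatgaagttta

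The 2 Novus calls at the same locus shared no base with a Santa Cruz call, and their letters are shown for comparison. The first was 348 bp from the nearest Santa Cruz call and the second 9.706 kb. The upstream call held a GATA match (AGATAA) and, after it, the heptamer of the recombination signal (CACAGTG), both on the plus strand.
Rag2 distal upstream, Novus, chr2:101403469-101403663: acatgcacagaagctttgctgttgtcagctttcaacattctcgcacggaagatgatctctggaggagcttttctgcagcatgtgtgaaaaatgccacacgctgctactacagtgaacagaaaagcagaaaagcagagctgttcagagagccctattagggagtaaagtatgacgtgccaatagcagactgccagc
Rag1 distal upstream, Novus, chr2:101512148-101512342: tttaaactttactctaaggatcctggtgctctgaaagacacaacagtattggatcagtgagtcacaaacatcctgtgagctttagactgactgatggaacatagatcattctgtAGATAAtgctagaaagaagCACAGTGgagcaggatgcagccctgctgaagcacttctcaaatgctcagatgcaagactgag

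The last set holds the peaks closest to *Dntt* and *Ptcra*. The peak upstream of *Dntt* held a GATA match on the plus strand. For *Ptcra*, which is on the minus strand, only the part of the peak upstream of the RefSeq transcription start is shown.
Dntt upstream, Santa Cruz, chr19:41096825-41097011: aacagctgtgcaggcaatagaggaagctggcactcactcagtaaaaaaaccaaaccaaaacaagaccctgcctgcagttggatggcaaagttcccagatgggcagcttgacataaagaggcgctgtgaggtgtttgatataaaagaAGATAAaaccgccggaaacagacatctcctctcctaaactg
Dntt intron, Santa Cruz, chr19:41113677-41113863: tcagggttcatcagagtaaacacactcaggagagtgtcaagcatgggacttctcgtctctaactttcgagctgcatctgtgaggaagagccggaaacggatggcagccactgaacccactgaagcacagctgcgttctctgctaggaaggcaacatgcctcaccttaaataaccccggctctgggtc
Ptcra promoter, Santa Cruz, chr17:46900662-46900813: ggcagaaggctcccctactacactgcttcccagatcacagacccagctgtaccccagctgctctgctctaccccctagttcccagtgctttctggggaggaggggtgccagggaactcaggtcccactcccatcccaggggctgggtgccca

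The recombinase locus held the most peaks. *Rag1* (ENSMUSG00000061311.6, chr2:101478439-101489658, minus strand) and *Rag2* (ENSMUSG00000032864.3, chr2:101464875-101472685, plus strand) point towards each other, and the window around them spanned 224.8 kb. It held 10 Santa Cruz peaks and 2 Novus peaks. The 10 Santa Cruz peaks spread over 150.1 kb, on both sides of the gene pair, with 1 inside *Rag2* and none inside *Rag1*. Positions of single peaks below are those of the called intervals, and distances are from the peak centre.

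The peak nearest to a recombinase start was the one in the *Rag2* intron (chr2:101465692-101465878). Its centre was 0.91 kb downstream of the first annotated start of *Rag2* and 882 bp from the closest of the 2 *Rag2* starts. *Rag2* encodes the partner of RAG1 that reads trimethylated lysine on histone H3. On the other side of the pair, a Santa Cruz peak was centred 2.729 kb upstream of the *Rag1* start (chr2:101492294-101492480). No peak of either list was centred within 1 kb of the start of *Rag1*, which encodes the subunit with the catalytic site. The RefSeq starts, placed on mm9 by exact sequence match, were 31 bp upstream of the GENCODE start for *Rag1* and 6 bp upstream for *Rag2*, so that the distances changed little, to 2.698 kb and 916 bp.

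On the 5′ side of *Rag2*, 4 further Santa Cruz peaks lay upstream of its start. They were centred 80.78 kb (chr2:101384002-101384188), 72.02 kb (chr2:101392767-101392953), 60.77 kb (chr2:101404012-101404198) and 16.11 kb (chr2:101448673-101448859) away. The first pair was in sequence between coding genes, and the second pair was in introns of B230118H07Rik, whose gene model in GENCODE M1 runs antisense to *Rag2* and spans both recombinase genes. The lists carry no strand, so a peak in this stretch belongs to no gene in particular.

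On the 5′ side of *Rag1*, farther upstream, 3 Santa Cruz peaks were in introns of *Traf6*, which encodes a ubiquitin ligase of innate immune signalling. They were centred 32.48 kb (chr2:101522049-101522235), 33.6 kb (chr2:101523168-101523354) and 44.49 kb (chr2:101534052-101534238) upstream of the *Rag1* start. The first 2 were 1.119 kb apart. None of the 3 was within 1 kb of the *Traf6* start, the closest being 3.545 kb from it. No peak of either list fell in the right-hand part of the window, which holds part of *Prr5l*, encoding a protein that binds mTORC2.

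The 2 Novus peaks of the locus were on either side of the gene pair. The first (chr2:101403469-101403663) was centred 61.31 kb upstream of *Rag2* in an intron of B230118H07Rik. It was separated from the nearest Santa Cruz peak by 348 bp, with centres 539 bp apart. The second (chr2:101512148-101512342) was centred 22.59 kb upstream of *Rag1*, between coding genes and 6.352 kb from the start of *Traf6*. Its nearest Santa Cruz peak was 9.706 kb away, so this call had no neighbour in the other list.

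**Figure D1:**
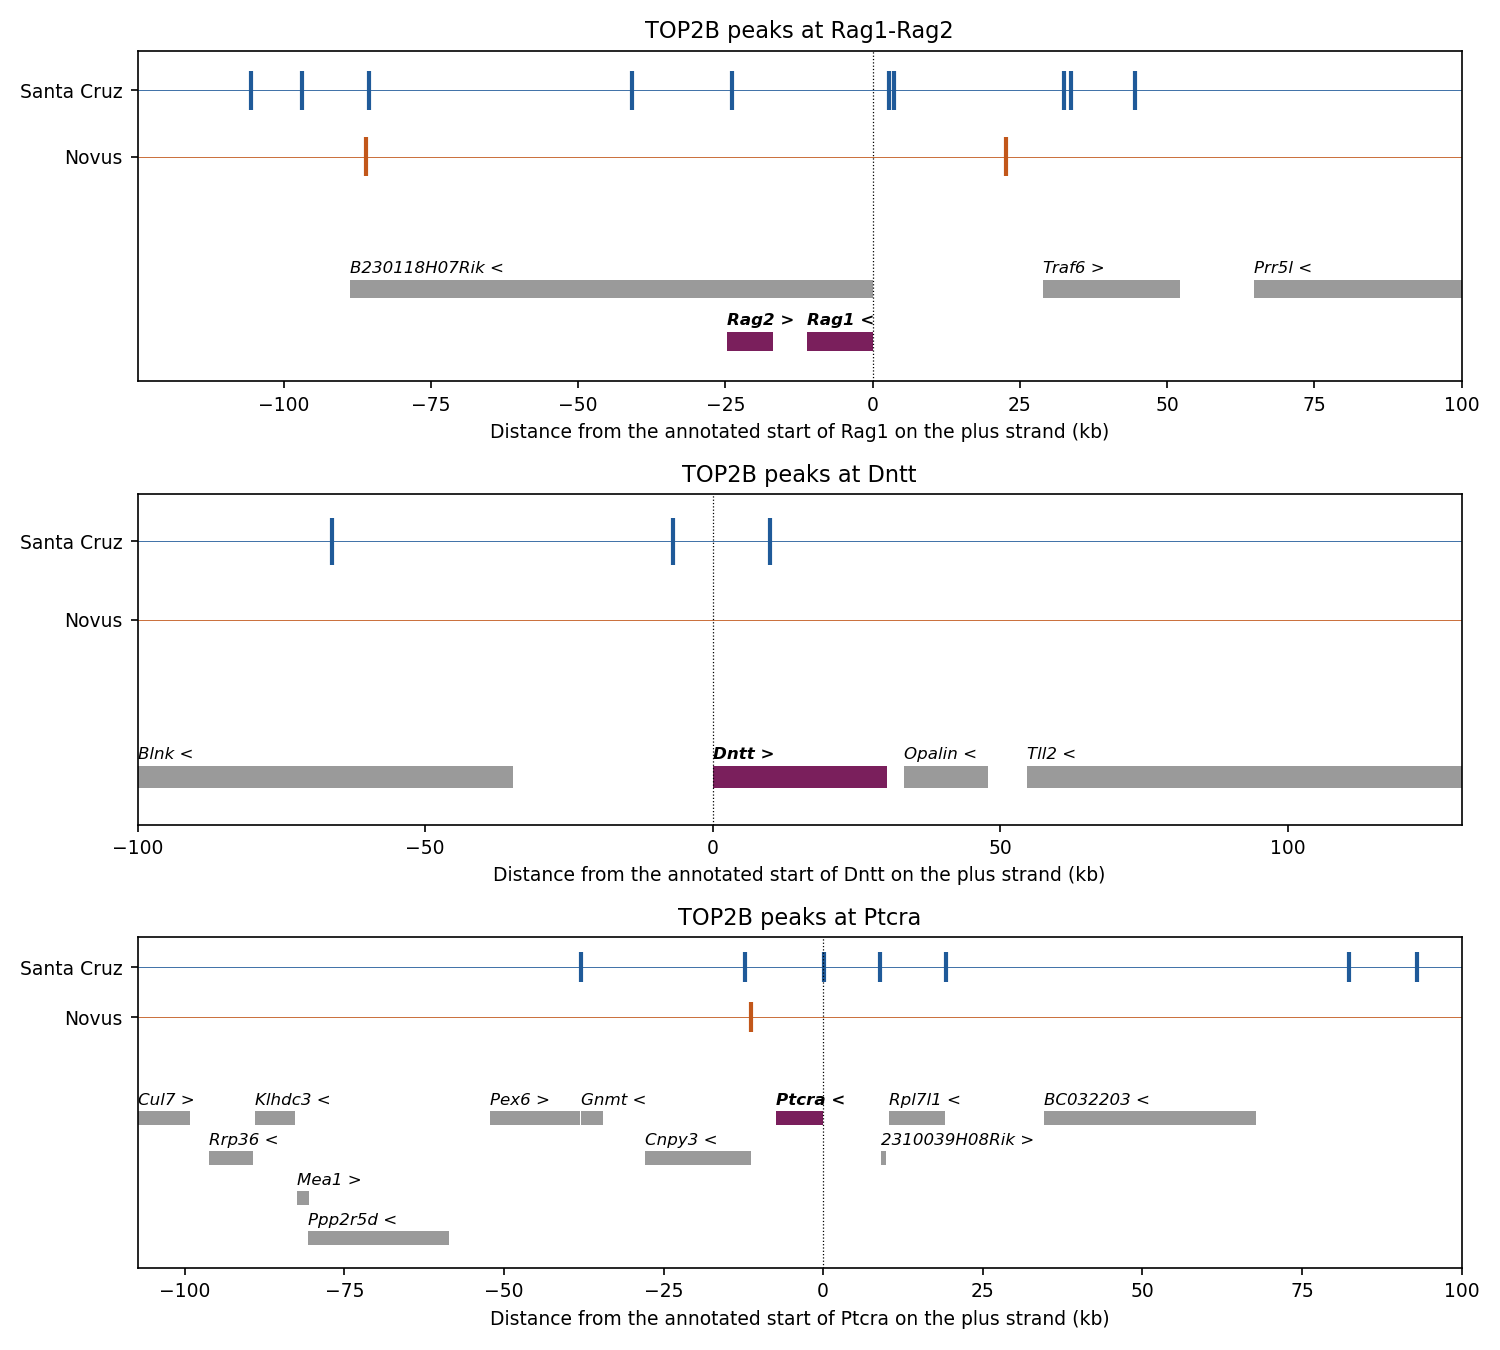
Map of the 3 windows, with distance in kb on the plus strand from the annotated start of *Rag1*, *Dntt* or *Ptcra* (dotted line) on the horizontal axis. Each vertical tick is the centre of a called TOP2B peak, blue for Santa Cruz and orange for Novus, and bars are coding gene bodies (purple for the member genes, grey for others) with > or < for strand; of the 10 Santa Cruz peaks at *Rag1*-*Rag2*, 1 lies in *Rag2* and the others on both sides of the gene pair, and the *Dntt* window holds 3 Santa Cruz peaks and no Novus peak.

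*Dntt* (ENSMUSG00000025014.6, chr19:41103765-41134013, plus strand) held the fewest peaks of the 3 loci. In its window of 230.2 kb there were 3 Santa Cruz peaks and no Novus peak. The closest (chr19:41096825-41097011) was centred 6.847 kb upstream of the start, between coding genes. The second (chr19:41113677-41113863) was in an intron of *Dntt*, 10.01 kb downstream of the start. The third (chr19:41037493-41037679) was 66.18 kb upstream, in an intron of *Blnk*, which encodes an adaptor of the B cell receptor. None of the 3 was near an annotated start, and no peak was called downstream of the gene, in *Opalin* or in the part of *Tll2* that lies in the window. The RefSeq start of *Dntt* coincided with the GENCODE start. Just outside the window, a Novus peak (chr19:40969519-40969713) and a Santa Cruz peak (chr19:40969914-40970100) were 134.1 and 133.8 kb upstream of the gene.

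*Ptcra* (ENSMUSG00000036858.7, chr17:46893176-46900542, minus strand) was the only member gene whose RefSeq start lay inside a called peak. Its window of 207.4 kb held 7 Santa Cruz peaks and 1 Novus peak. The promoter peak, from the Santa Cruz list (chr17:46900627-46900813), was centred 178 bp upstream of the GENCODE start. In GENCODE M1 the *Ptcra* model is typed as an immunoglobulin constant gene and begins at the start codon. The RefSeq start was 119 bp farther upstream, inside the called peak and 59 bp from its centre. No peak was called inside the gene body.

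Of the other 6 Santa Cruz peaks around *Ptcra*, 3 were near starts of neighbouring genes. One was in an intron of *Cnpy3* (chr17:46888265-46888451), 786 bp from the start of this chaperone gene for Toll-like receptors. One was 122 bp from the start of 2310039H08Rik (chr17:46909369-46909555), and another 241 bp from the start of *Rpl7l1* (chr17:46919753-46919939), a gene for a protein similar to a ribosomal protein. These 3 were 12.18 kb downstream, 8.92 kb upstream and 19.3 kb upstream of the *Ptcra* start. The remaining 3 were not near a start. One (chr17:46862472-46862658) lay 37.98 kb downstream of the *Ptcra* start, where the 3′ ends of *Pex6* and *Gnmt* meet, and the others lay 82.32 kb (chr17:46982770-46982956) and 92.93 kb (chr17:46993380-46993566) upstream, beyond BC032203. The noncoding gene Gm16736 is also annotated across part of the window, so that between coding genes does not mean free of annotation. The Novus peak (chr17:46889086-46889280) was 20 bp from the start of *Cnpy3* and 11.36 kb from that of *Ptcra*. It was separated from the Santa Cruz peak in *Cnpy3* by 634 bp, with centres 825 bp apart.

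The antibodies did not call the same intervals at any of the 3 loci. None of the 3 Novus peaks shared a base with a Santa Cruz peak, and so few peaks set no useful limit on the share. From the other side, 0 of 20 Santa Cruz peaks were common, which allows a share of up to 15%. This limit covers counting error only. Over the whole lists, sharing of 1 bp or more was found for 994 of the Novus calls (27.9%) and for 1003 of the Santa Cruz calls (5.65%). The paper limited its set of 1003 TOP2B peaks to those called with both antibodies. By sharing of 1 bp, no peak of the 3 loci is a common peak, so each one rests on a single antibody. With centres within 1 kb counted as a pair, 2 of the 3 Novus peaks had a partner, the one upstream of *Rag2* and the one at *Cnpy3*, against 38.2% of all Novus peaks. Santa Cruz calls made up 87.0% of the peaks at the loci and 83.3% of all peaks.

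Whether a peak near these genes is unusual depends on how common peaks are near any gene. Among 22351 coding genes, 79.6% had a Santa Cruz peak inside or within 100 kb and 40.1% had a Novus peak. All 4 member genes had a Santa Cruz peak and 3 of 4 had a Novus peak, and with peaks near so many genes these counts are not read as a result about the members. Within 1 kb of a start, 12.1% of coding genes had a Santa Cruz peak and 5.11% a Novus peak, beside 2 of 4 member genes (*Rag2* and *Ptcra*) and 0 of 4. A peak centre inside the gene was found in 25.5% of coding genes for Santa Cruz and 7.67% for Novus, beside *Rag2* and *Dntt* for Santa Cruz and no member for Novus.

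In number of peaks, the recombinase genes stood high among coding genes. A coding gene had a median of 2 Santa Cruz peaks in such a window (mean 2.775). With 10 each, the same peaks counted for both, *Rag1* and *Rag2* were among 382 coding genes (1.71%) with 10 or more. *Ptcra*, with 7, was among 8.51% with at least as many, and *Dntt*, with 3, among 46.4%. For Novus the median was 0, and 13.9% of genes had at least the 2 peaks of *Rag1* and *Rag2*. Neighbouring genes share windows and long genes have wider ones, so these shares describe a rank and are not independent.

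In distance to a start, *Ptcra* came first and *Dntt* last in the Santa Cruz list. A closer Santa Cruz peak was found at 5.28% of coding genes for *Ptcra*, 11.7% for *Rag2*, 16.4% for *Rag1* and 23.6% for *Dntt*. Distances here are from GENCODE starts, which for *Ptcra* means the start codon (178 bp). Its RefSeq start was nearer to the Santa Cruz peak centre (59 bp). The median distance over all coding genes was 30.6 kb, so each member was closer to a peak than most genes. For Novus, with a median of 167.3 kb, the shares were 9.37% for *Ptcra*, 13.8% for *Rag1*, 22.8% for *Rag2* and 44.4% for *Dntt*. *Ptcra* was thus the closest and *Dntt* the farthest in both lists, while the recombinase genes changed places.

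**Figure D2:**
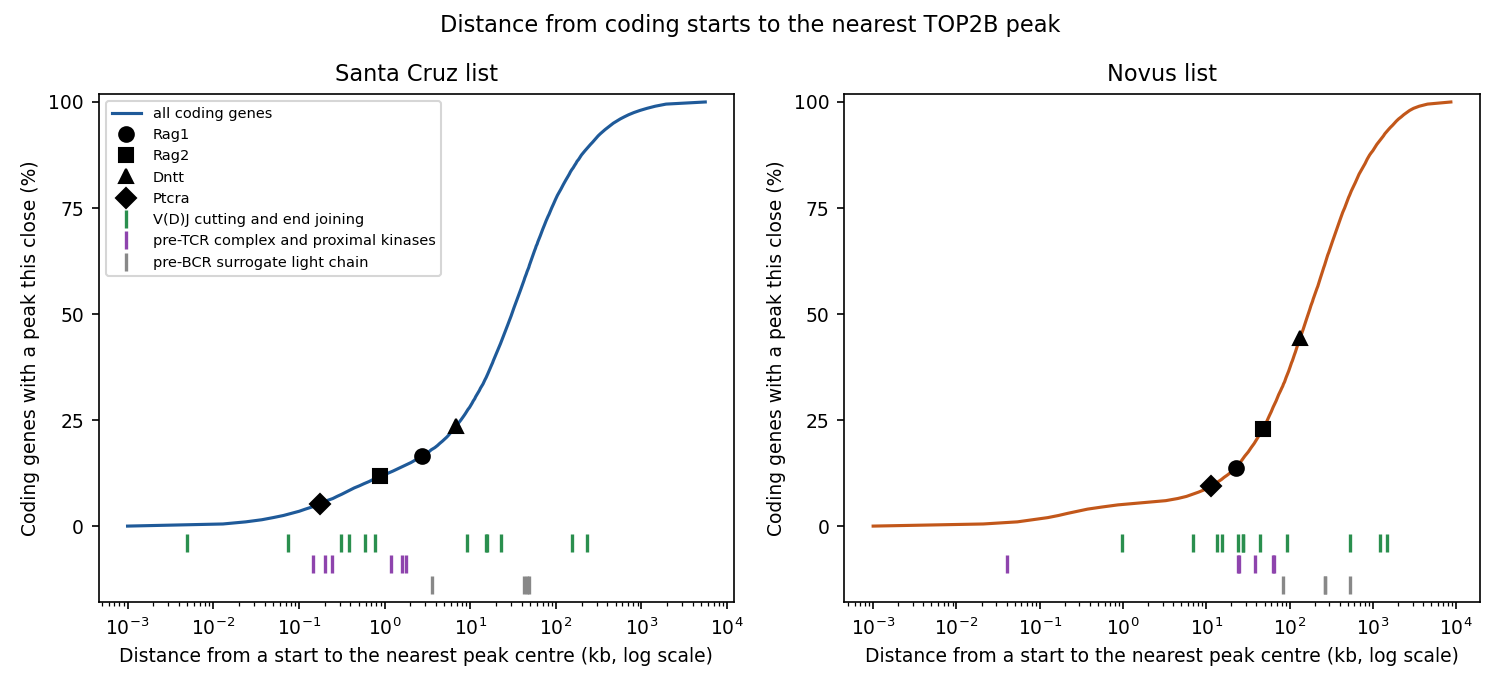
Distance from a start to the nearest TOP2B peak centre (kb, log scale, 0 drawn at the left edge) on the horizontal axis and the share of coding genes with a peak this close (%) on the vertical axis, for each antibody. The line is all 22351 coding genes, black symbols are the member genes, and ticks below 0 are the genes of 3 related lists; *Ptcra* lies leftmost and *Dntt* rightmost among the members in both panels.

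The lists were then compared with themselves after moving the peaks along the chromosome. Every circular shift was counted, which amounts to placing the window at each position of the chromosome. Neighbouring shifts overlap almost wholly, so the number of shifts is not a number of independent placements. At *Rag1*-*Rag2*, shifted Santa Cruz peaks gave a mean of 1.73 in the window, against the 10 called, and 0.62% of the 181748087 shifts gave 10 or more. Gene-rich and gene-poor stretches are mixed in these shifts. When shifts were limited to 10 kb to 1 Mb in either direction the mean was 3.19 and the share 8.37%, and with shifts of 250 kb to 1 Mb, which move the window clear of itself, the share was 6.67%. The *Rag1*-*Rag2* count was far above the chromosome as a whole and less set apart from its own neighbourhood. Shifts within 1 Mb hold few windows that do not overlap, so their shares rest on little sequence.

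At *Ptcra*, the 7 Santa Cruz peaks compared with a mean of 1.67 under circular shifts, and 4.06% of shifts gave as many. The share rose to 15.3% with shifts of 10 kb to 1 Mb, to 13.7% with shifts of 250 kb to 1 Mb and to 9.81% with 200 kb on each side of the gene. At *Dntt*, the 3 peaks compared with a mean of 1.97, and 31.7% of shifts gave as many. With shifts of 10 kb to 1 Mb the mean was 3.01, so that the *Dntt* count was then no longer above it. For Santa Cruz the share was thus below 5% at *Rag1*-*Rag2* and *Ptcra* under circular shifts, and at none of the 3 loci under shifts within 1 Mb.

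The Novus counts were too small to set a locus apart along the chromosome. The 2 peaks at *Rag1*-*Rag2* were reached in 7.56% of circular shifts (mean 0.341) and the 1 at *Ptcra* in 23.5% (mean 0.366), and 72.0% of shifts left the *Dntt* window as empty as it was called (mean 0.398). In shifts of 250 kb to 1 Mb, 0% gave 2 Novus peaks at *Rag1*-*Rag2* (mean 0.255), whereas with shifts of 10 kb to 1 Mb, which keep part of the locus in the window, 10.3% did.

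**Figure D3:**
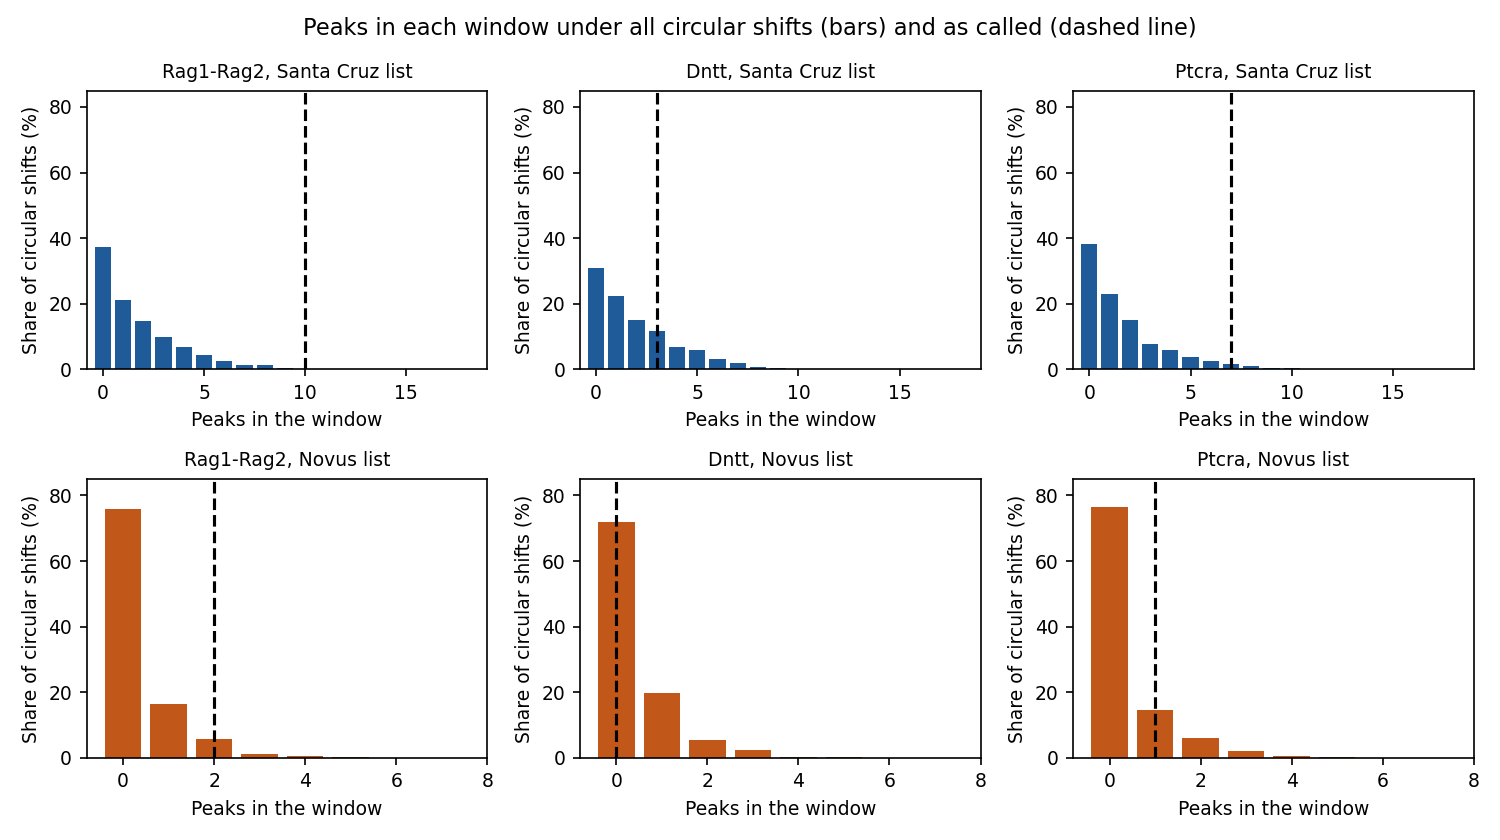
Number of peaks in each window (horizontal axis) over all circular shifts of a list along its chromosome, as a share of shifts in % (bars, vertical axis), with the called number as a dashed line, for Santa Cruz (blue, top) and Novus (orange, bottom). The line lies where almost no shifts fall at *Rag1*-*Rag2* for Santa Cruz (10 peaks, 0.62% of shifts with as many) and among the bars at *Dntt* (3 peaks, 31.7%).

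The loci differed in where their peaks were placed. Of the 20 Santa Cruz peaks, 5 were within 1 kb of a coding start, 4 of them at *Ptcra* and its neighbours, 1 at *Rag1*-*Rag2* and 0 at *Dntt*. In the whole list 15.2% of Santa Cruz peaks and 29.7% of Novus peaks were near a start. The *Ptcra* window contains starts of 11 coding genes, against 4 at *Rag1*-*Rag2* and 3 at *Dntt*, and 4 of those 11 genes had a Santa Cruz peak within 1 kb of a start. Inside coding genes there were 9 of the 20 Santa Cruz peaks, all centred in introns, and 52.8% of the whole list. At *Rag1*-*Rag2*, 6 of 10 Santa Cruz peaks were in introns and 4 between coding genes, and at *Ptcra* 1 of 7 was in an intron and 6 between coding genes.

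Peaks at the *Rag1*-*Rag2* locus lay close to each other, which follows in part from their high number in the window and is not a separate result. The median distance from a Santa Cruz peak to its nearest neighbour in the list was 8.77 kb at this locus and 27.3 kb over the whole list. Of the 20 locus peaks, 4 had a neighbour within 1200 bp, all at *Rag1*-*Rag2* and among them the pair in *Traf6*, beside 5.04% in the whole list. The limit of 1200 bp lies just above the 1.119 kb between the peaks of that pair. The edges of the window left no peak in doubt at *Rag1*-*Rag2*, since the outermost Santa Cruz peaks were 80.78 and 44.49 kb from the genes and the next ones outside were 133.2 and 159.9 kb away.

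Of the motifs searched on both strands, the CTCF core (allowing up to 1 mismatch) was found in 5 of the 20 Santa Cruz peaks, 3 at *Rag1*-*Rag2*, 1 at *Dntt* in the *Blnk* intron and 1 at *Ptcra* between *Pex6* and *Gnmt*. It was found in 9.07% of all Santa Cruz peaks. Within 250 bp of the centre the count was again 5 of 20, beside 15.9%. A count of 5 peaks that lie together at 3 loci is small, and its difference from the list was not tested. At *Rag1*-*Rag2* the match in the leftmost peak was on the minus strand, and that in *Traf6* was on the plus strand. The match in *Traf6* had 1 mismatch and the leftmost match had 0. The match at *Ptcra* also had 1 mismatch, and that in the *Blnk* intron had 0. None of the 3 Novus peaks held the core, beside 15.5% of that list.

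Motifs of lymphoid factors were each found in at most 2 of the 20 Santa Cruz peaks, and counts this small do not set the loci apart from the list. A GATA match (AGATAA) was found in 2 of 20 Santa Cruz peaks, upstream of *Dntt* and upstream of *Rag2*, beside 8.79% of the list, and in 1 of 3 Novus peaks, beside 7.32%. A RUNX match (TGTGGT) was found in 2 of 20, beside 15.5%. The E protein motif (CAGGTG) was found in 0 of 20, which allows a share of up to 15%, beside 16.2% of the list. This limit treats the peaks as independent, although they lie together at 3 loci, so no depletion is read from it. The recombination signal heptamer (CACAGTG) was found in 0 of 20 Santa Cruz peaks, beside 6.21%, and in 1 of 3 Novus peaks, the one upstream of *Rag1*, beside 5.95%. None of these matches overlapped another. A match is a description of letters in a called interval, and binding of these factors was not measured here. GC content of the 20 Santa Cruz peaks ranged from 38.0% to 63.6% with a median of 47.6%, close to the 48.1% of the list, and the highest value was at the *Ptcra* promoter.

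Other genes of the same pathway can be set beside the members. Of 12 genes for V(D)J cutting cofactors and end joining, 11 had a Santa Cruz peak within 100 kb, 6 had one within 1 kb of a start and 6 had one inside, with a median of 4 peaks per window. The shares over all coding genes were 79.6%, 12.1% and 25.5%, with a median of 2. The closest were *Hmgb1*, which encodes a DNA-bending cofactor of the recombinase (5 bp from a start, 13 peaks), and *Atm*, the kinase of the double-strand break response (74 bp, 3 peaks). *Dclre1c*, encoding the hairpin-opening nuclease Artemis, had a peak 588 bp from a start, and *Lig4*, encoding the ligase that seals the joints, had one at 780 bp. *Xrcc4*, which encodes the partner of LIG4 and was named after its values were seen, was the gene without a Santa Cruz peak in its window. Only *Lig4* also had a Novus peak within 1 kb of a start, at 982 bp, and 9 of the 12 had a Novus peak within 100 kb, beside 5.11% and 40.1% of all coding genes.

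Of the partners of PTCRA on the cell surface and the kinases next to it, all 6 had Santa Cruz peaks within 100 kb, between 5 and 9 each, with a median of 6.5, and 5 of 6 had a peak inside the gene, beside a median of 2 and shares of 79.6% within 100 kb and 25.5% inside over all coding genes. *Cd3g* (241 bp), *Lck* (204 bp) and *Zap70* (145 bp) had one within 1 kb of a start, beside 12.1% of all coding genes. For the other 3 the closest was between 1.202 and 1.804 kb away. The genes for CD3 γ, δ and ε are neighbours and share peaks. All 6 had 2 Novus peaks each in their windows, beside 13.95% of coding genes with at least 2 and 40.1% with any. *Lck*, the kinase that starts pre-TCR signalling, had a Novus peak 41 bp from a start. It was the only 1 of the 6 with a Novus peak within 1 kb of a start, beside 5.11% of coding genes. These lists were chosen with earlier results of these data known, and their counts are given without a test.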

How the data were processed

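Libraries were prepared by ChIPmentation and sequenced by Illumina. The authors aligned reads to mm9 (Bowtie 1.2.0, per the labels) and used HOMER with its factor setting to call peaks, with a minimum of 10-fold over IgG. The deposited lists hold a position (chromosome, start and end) per peak, called per library. Every Santa Cruz peak is 187 bp wide and every Novus peak 195 bp. The deposited score is 0 in each row and was not used. No read numbers are in the lists, so depth and precision per peak are unknown.

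Peaks were assigned by centre with Python 3.11.15, numpy 2.4.6 and pysam 0.24.0, and figures were drawn with matplotlib 3.10.9. Genes were protein-coding genes of GENCODE M1 on chromosomes 1 to 19 and X, plus *Ptcra*. RefSeq starts come from promoter sequences of GRCm38.p6, all 4 of which matched mm9 exactly at 1 place. Peaks were common if they shared at least 1 bp. Shifts were enumerated exactly, each locus and list on its own, and the share of shifts is a description without adjustment, read against 5%. The counting was tested on simulated data. Named genes were the members, genes holding a peak of the loci or with a start within 1 kb of one, the closest coding start to each other peak, and up to 4 genes of each pathway list, with *Xrcc4* added after its values were seen. Members, lists and motifs were chosen with earlier results of these data known. For 1 counted Santa Cruz peak at *Rag1*-*Rag2* position and sequence are not reported here.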

Additional observations from a re-analysis of the deposited data

How the results depend on the processing

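Of 70 values under alternative settings, 57 kept their direction and their side of 5% of shifts, or stayed within 1.5 times the reported count. Counts moved at *Rag1*-*Rag2* for Novus with 50 kb on each side (1 peak) and at *Dntt* with 200 kb on each side (8 Santa Cruz peaks, 1 Novus peak). The number of Novus peaks common to both antibodies was 2 with both lists extended by 1 kb and 2 with centres within 1 kb. The share of shifts with as many Santa Cruz peaks was no longer below 5% with shifts of 10 kb to 1 Mb at *Rag1*-*Rag2* (8.37%) and *Ptcra* (15.3%), with shifts of 250 kb to 1 Mb, an alternative chosen after seeing the data (6.67% and 13.7%), and at *Ptcra* with 200 kb on each side (9.81%). For Novus at *Rag1*-*Rag2* it fell to 0% with shifts of 250 kb to 1 Mb. The direction against the mean of the shifts turned in 2 settings at *Dntt*. For Santa Cruz with shifts of 10 kb to 1 Mb, the 3 peaks were almost equal to the mean of 3.007. There 70.5% of shifts gave at most as many peaks and 46.7% at least as many. For Novus it turned with 200 kb on each side, where 41.1% gave at least as many. The cause was not tested. Placements with at most 10% unassembled bases and a count without the start of *Ptcra*, both also chosen after seeing the data, changed no call.

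No paired analysis was possible because the results come from no test between groups, and with 1 library per antibody there was no replicate to leave out. The lists give no peak heights, so no stricter threshold was applied, and the signal below the authors' threshold was not analysed here.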

Other observations

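The genes of the surrogate light chain (*Igll1*, *Vpreb1* and *Vpreb2*), the counterpart of PTCRA in B cell precursors, were also looked up in both lists. The related gene *Vpreb3*, which is not a part of that chain, was looked up with them. All 4 (*Igll1*, *Vpreb1*, *Vpreb2* and *Vpreb3*) had a Santa Cruz peak within 100 kb, with a median of 1 per window. None had one inside the gene or within 1 kb of a start. The shares over all coding genes were 79.6% within 100 kb, 25.5% inside and 12.1% within 1 kb of a start. With only 4 genes, these counts do not set them apart from coding genes in general. The closest was 3.557 kb from the start of *Vpreb3*, and the other 3 genes were between 42.91 and 48.18 kb from a peak. In the Novus list only *Vpreb3* had a peak within 100 kb, at 84.42 kb from its start, beside 40.1% of all coding genes. *Igll1* and *Vpreb1* are neighbours and share their window. The difference between these genes and those of the pre-TCR was not tested.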
